A study of Mus musculus with 8 samples.

Results

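FGFR1 peaks in mouse embryonic stem cells differentiated with retinoic acid (RA) were divided by the nuclear receptors found at the same place. Each FGFR1 peak was put in a class by whether it shared at least 1 bp with a peak of RXR alone, of Nur77 alone, of both receptors or of neither, all in RA. The members are the 46137 peaks of FGFR1 replicate 1 and the 14082 peaks of FGFR1 replicate 2, together 60219 of the 176687 peaks in the 8 lists of the study, and they were classed against 15224 RXR peaks and 25995 Nur77 peaks. The title of replicate 2 marks it as experiment 2, and the files do not say whether it came from a separate culture.

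The study mapped FGFR1, RXR and Nur77 by chromatin immunoprecipitation and sequencing (ChIP-seq) in E14Tg2a cells, a mouse embryonic stem cell line, at passages 37 to 40. Monolayers without leukemia inhibitory factor (LIF) received 1 µM RA for 48 h, and the histone variant H3.3 was mapped in these cells as well. Undifferentiated cells kept in LIF gave a list each for FGFR1, RXR and Nur77. No group carried a genetic change. Every ChIP pooled plates of a single line, RXR, Nur77 and H3.3 had 1 library each in RA, and no input or control library is named in the peak-calling commands. Peak lists hold no RNA, so the labelled cell type could not be checked against expressed markers.

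FGFR1 is a receptor tyrosine kinase for fibroblast growth factors, and a form of it is found in the nucleus. RXR is the obligate partner of many nuclear receptors, including the RA receptors, and Nur77 (gene Nr4a1) is an orphan nuclear receptor that binds DNA alone, as a dimer or with RXR. RXR heterodimers recognise paired copies of the letters AGGTCA, and a Nur77 monomer recognises an extended copy of them, whereas cAMP response elements are read by CREB and its relatives.

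The following windows are printed to show what lay under FGFR1 summits of each class. Each is 100 bp around the replicate 1 summit at a promoter (mm10, plus strand, 1-based), for the best ranked genes on whose class both FGFR1 lists agreed, whose window touched no annotated exon and held at least 1 of the motifs in capitals. This choice was made after the values were seen. Capitals mark the E-box (CACGTG), the NRF1 core (GCATGCGC), the cAMP response element (CRE, TGACGTCA), an ETS site (CCGGAAGT), a GC box (GGGGCGGGG) or the nuclear receptor core (AGGTCA), on either strand. The first 4 windows had both receptors, the next pair RXR only, the next pair Nur77 only and the last 3 neither.
Zzz3, chr3:152396333-152396432, intron: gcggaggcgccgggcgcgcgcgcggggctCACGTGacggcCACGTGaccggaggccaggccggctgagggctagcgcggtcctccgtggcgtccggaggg
Zfat, chr15:68258890-68258989, upstream: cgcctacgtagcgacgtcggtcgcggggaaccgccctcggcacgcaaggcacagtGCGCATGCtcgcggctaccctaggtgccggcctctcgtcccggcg
Cfdp1, chr8:111854295-111854394, upstream: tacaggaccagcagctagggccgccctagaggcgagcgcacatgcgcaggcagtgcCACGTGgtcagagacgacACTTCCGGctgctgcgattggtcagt
Ythdf3, chr3:16183007-16183106, upstream: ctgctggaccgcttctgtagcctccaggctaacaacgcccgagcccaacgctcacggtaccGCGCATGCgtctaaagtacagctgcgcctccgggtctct
Clptm1l, chr13:73603886-73603985, upstream: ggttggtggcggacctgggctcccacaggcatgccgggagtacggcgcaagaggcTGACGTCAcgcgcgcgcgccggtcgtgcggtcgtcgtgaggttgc
Zfp868, chr8:69625141-69625240, intron: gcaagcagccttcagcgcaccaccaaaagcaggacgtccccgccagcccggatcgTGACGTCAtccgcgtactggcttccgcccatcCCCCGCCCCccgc
Hinfp, chr9:44305906-44306005, upstream: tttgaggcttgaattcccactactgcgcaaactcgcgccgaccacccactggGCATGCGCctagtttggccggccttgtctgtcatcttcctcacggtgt
Zfp672, chr11:58323403-58323502, intron: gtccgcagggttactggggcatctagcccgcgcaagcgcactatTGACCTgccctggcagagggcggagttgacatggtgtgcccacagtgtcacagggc
9930021J03Rik, chr19:29806482-29806581, upstream: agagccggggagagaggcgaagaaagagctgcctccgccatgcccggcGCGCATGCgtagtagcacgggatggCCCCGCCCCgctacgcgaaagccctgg
Wdr89, chr12:75669308-75669407, intron: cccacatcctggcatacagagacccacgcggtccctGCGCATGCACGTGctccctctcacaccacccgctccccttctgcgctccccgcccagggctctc
Ptpn11, chr5:121191421-121191520, upstream: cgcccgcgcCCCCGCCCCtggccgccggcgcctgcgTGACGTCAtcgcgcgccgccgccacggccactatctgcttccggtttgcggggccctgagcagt

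At Cfdp1 the FGFR1 summit of replicate 1 lay 2 bp from the RXR summit and 6 bp from the Nur77 summit, and at Ythdf3 these distances were 248 and 32 bp. Ptpn11 encodes Shp2, a phosphatase that relays FGF receptor signals to Ras, and its FGFR1 peak had a fold of 11.5 in replicate 1 and 16.5 in replicate 2 with no receptor peak in RA. In the Wdr89 window the NRF1 core and the E-box overlap. Of these 11 windows, only that at Zfp672 held the nuclear receptor core.

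A separate kind of site filled much of replicate 1. These peaks lay on runs of at least 20 bp in which purines and pyrimidines alternate, called tracts here. Tracts were found in 21.1% of the peaks of replicate 1 and 1.26% of those of replicate 2, against 45.2% for RXR and 40.1% for Nur77, so the shares, values and distances are also given without them. An example of the class with both receptors, outside genes, is shown with its alternating run of 82 bases in capitals. Its replicate 1 peak had a fold of 34.7 and a −log10 p of 128.
Tract site, chr2:31239306-31239447: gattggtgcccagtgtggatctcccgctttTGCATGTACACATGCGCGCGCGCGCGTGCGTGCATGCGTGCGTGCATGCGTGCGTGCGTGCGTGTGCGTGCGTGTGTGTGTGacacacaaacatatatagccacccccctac

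The lists differed in depth. The background recovered from the deposited values was 4.16 and 6.78 fragments per kb for FGFR1 replicates 1 and 2, 1.87 for RXR and 3.82 for Nur77. A median peak held 10 fragments at its summit in FGFR1 replicate 1, 27 in replicate 2, 9 in RXR and 10 in Nur77. A class with neither receptor therefore means that no receptor peak was called at this depth, not that the receptor was absent. The median widths were 89 and 311 bp for FGFR1 and 134 and 109 bp for RXR and Nur77.

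The first question was how FGFR1 sites in RA divide among the receptors. Most had neither. Both receptors were found at 5982 peaks of replicate 1, which is 13% (95% CI 12.7 to 13.3), and at 1693 peaks of replicate 2, which is 12% (11.5 to 12.6), a mean of 12.5% ± 0.667 (SD, n = 2). RXR alone was found at 3643 peaks or 7.9% (7.65 to 8.15) of replicate 1 and at 1592 or 11.3% (10.8 to 11.8) of replicate 2, a mean of 9.6% ± 2.41 (SD, n = 2). Nur77 alone was found at 6772 or 14.7% (14.4 to 15) and at 1667 or 11.8% (11.3 to 12.4), a mean of 13.3% ± 2.01 (SD, n = 2). The remaining 29740 and 9130 peaks, a mean of 64.6% ± 0.265 (SD, n = 2), had neither. The intervals are exact Clopper-Pearson intervals and cover counting error only. Both FGFR1 lists were classed against the same RXR and Nur77 lists, so the SD holds no variation of the receptors. No test between groups was possible with 1 receptor library each.

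The shares of RXR alone and Nur77 alone differed between the lists by more than their counting error, and in replicate 1 the peaks with Nur77 alone were the more frequent. That order turned when each list was limited to its 14082 strongest peaks, with RXR alone at 14.2% and Nur77 alone at 11.7% of replicate 1. The limit fell mostly on Nur77, whose full list held 25995 peaks against 15224 for RXR. The part of list length in either order was not tested. Within replicate 2 the intervals of the 3 classes with a receptor overlapped. Among promoter peaks without a tract the lists came closer. There both receptors were found at 11.4% and 12.9% of the peaks of replicates 1 and 2, RXR alone at 13% and 12.2%, Nur77 alone at 14.2% and 12.5%, and neither at 61.4% and 62.4%. Outside promoters, and without tracts, neither receptor was found at 79.1% of 20096 peaks and 80.0% of 2134 peaks. The tract peaks outside promoters went the other way, and 32.1% of the 9040 such peaks in replicate 1 had both receptors.

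**Figure D1:**
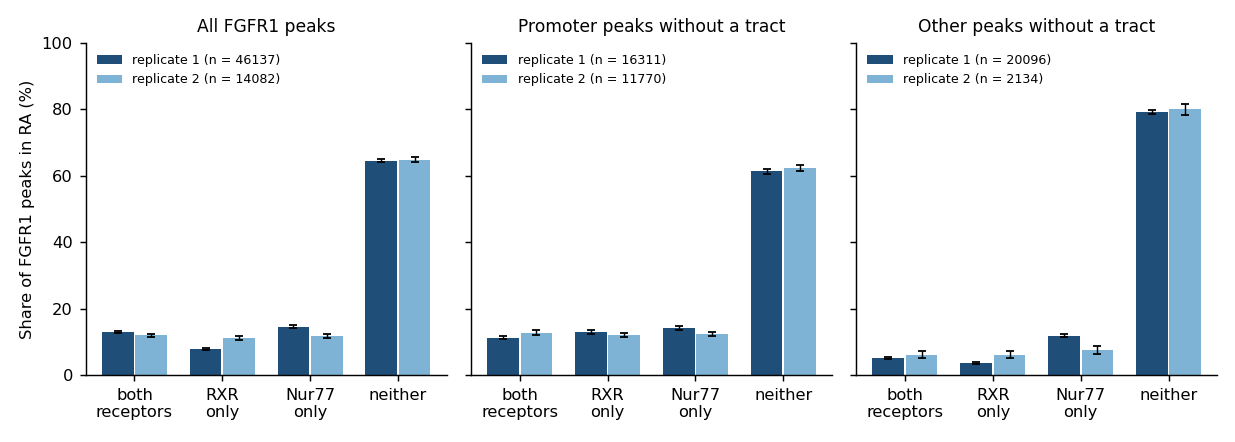
Share of FGFR1 peaks in RA (%, vertical axis) in each class for replicate 1 (dark) and replicate 2 (light), over all peaks, promoter peaks without a tract and other peaks without a tract. Bars start at 0, whiskers are exact 95% intervals for counting error, and the class with neither receptor holds 61.4% to 80.0% of the peaks in the 3 panels.

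FGFR1 peaks with a receptor were the stronger ones, and those with both were the strongest. Column 7 of the lists is the fold of the fragment pileup at the summit over the background. In replicate 1 its median was 10.1 (quartiles 7.94 and 13.4) with both receptors, 7.88 (quartiles 6.76 and 9.56) with RXR alone, 7.69 (quartiles 6.52 and 9.24) with Nur77 alone and 7.02 (quartiles 6.15 and 8.11) with neither. For replicate 2 the medians were 10.8, 9.45, 9.67 and 7.42 in that order. The quartiles overlapped between neighbouring classes in both lists. Column 8, the −log10 p of the summit, had medians of 17.8, 12.6, 11.9 and 10.8 in replicate 1 and 30.7, 24.2, 25.3 and 16.6 in replicate 2. The ratio of the median with both receptors to that with neither was 1.65 and 1.85 for −log10 p, and 1.43 and 1.46 for fold.

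The order held at promoters without tracts, where the median fold was 9.51 with both receptors against 6.92 with neither in replicate 1, and 11.1 against 7.89 in replicate 2. In fragments at the summit the medians over all peaks were 15 against 10 in replicate 1 and 37 against 24 in replicate 2. Peaks with both receptors were also wider, with medians of 127 and 412 bp against 82 and 279 bp with neither, and a wider peak can meet a 1 bp overlap more easily. The part of width in the classes was not tested.

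**Figure D2:**
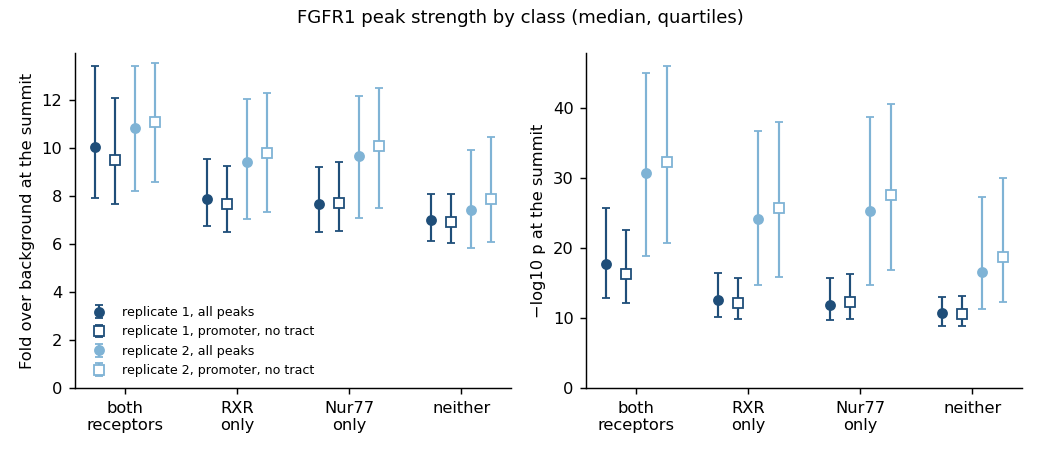
Median fold over background (left panel) and −log10 p (right panel) at the FGFR1 summit by class, with bars from the lower to the upper quartile, for all peaks (filled circles) and promoter peaks without a tract (open squares) of replicate 1 (dark) and replicate 2 (light). In both lists and both sets the class with both receptors has the highest median and the class with neither the lowest.

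The same relation appeared when each list was divided into 5 groups of equal size by −log10 p. In the top 20% of replicate 1, with values from 15.9 upward, 38% of the peaks had both receptors and 33.4% had neither. In the lowest 20% these shares were 3.5% and 78.2%. Replicate 2 showed the same, as the share with both receptors fell from 22.8% in the top group to 4.76% in the lowest, and the share with neither rose from 46.2% to 80.0%. The shares with a single receptor changed less, from 10.8% to 5.56% for RXR and from 17.9% to 12.8% for Nur77 in replicate 1. The receptor peaks followed the same pattern. At promoters without tracts, the RXR peak that met a replicate 1 FGFR1 peak had a median fold of 6.82 where Nur77 was present too and 6.46 where it was not, and the Nur77 peak had 7.2 and 6.63. These receptor medians stood on 8 to 10 fragments.

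Where the members lay depended on the FGFR1 list more than on the class. A promoter was all sequence within 1000 bp of any GENCODE M21 transcript start. Of the replicate 1 peaks with both receptors 34.2% were in promoters, against 60.1% with RXR alone, 36.5% with Nur77 alone and 34.6% with neither. The promoter shares of replicate 2 were 91%, 91.3%, 89.6% and 81%. The means were 62.6% ± 40.2 (SD, n = 2) with both receptors and 57.8% ± 32.8 (SD, n = 2) with neither. These SDs hold the gap between the lists and do not measure the difference between classes within a list. Within replicate 1 the shares with both receptors and with neither were 34.2% and 34.6%, and within replicate 2 they were 91% and 81%. The order of these means turned at a −log10 p of at least 10, to 54.9% against 62%. By list, the shares at that limit were 21.3% against 37.7% in replicate 1 and 88.5% against 86.4% in replicate 2. The tracts moved with this. They were in 51.7% of the replicate 1 peaks with both receptors, 20.5% with RXR alone, 30.6% with Nur77 alone and 12.9% with neither, and in 0.876% to 2.6% by class in replicate 2. When tract peaks were removed from the 4 lists, the promoter share with both receptors was 65.2% in replicate 1 and 91.9% in replicate 2, against 38.5% and 81.2% with neither, so that both lists then had the higher share with both receptors.

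At promoters the members sat close to the start. Over promoter peaks without tracts, the median distance from the FGFR1 summit to the nearest start was 58 bp with both receptors, 87 bp with RXR alone, 94 bp with Nur77 alone and 118 bp with neither in replicate 1, and 37, 46, 40 and 56 bp in replicate 2. The share within 100 bp of a start was 63.7% with both receptors against 46% with neither in replicate 1, and 77.9% against 65.6% in replicate 2. In every class of both lists somewhat more summits lay downstream of the nearest start than upstream, between 57% and 63%.

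The distances between summits were taken next, to the nearest receptor summit among the peaks that overlapped. With both receptors, the median distance from FGFR1 to RXR was 21 bp in replicate 1 (quartiles 8 and 48) and 75 bp in replicate 2 (34 and 144), a mean of 48 ± 38.2 bp (SD, n = 2). To Nur77 it was 18 bp (7 and 43) and 69 bp (32 and 133), a mean of 43.5 ± 36.1 bp (SD, n = 2). Where a single receptor was present the medians were 29 and 82 bp to RXR and 23 and 74 bp to Nur77. The summit of Nur77 was thus nearer than that of RXR by a few bp in each list, with quartiles that overlapped almost entirely. Replicate 2 has wider peaks, so the distances it allows are longer.

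Within the class with both receptors, FGFR1 summits lay within 100 bp of the RXR summit at 90.2% of the replicate 1 peaks and 61.5% of the replicate 2 peaks, and of the Nur77 summit at 89.9% and 65.3%. The receptors themselves overlapped each other at 98.2% of the replicate 1 peaks and 86.2% of the replicate 2 peaks with both. Their summits were 21 and 42 bp apart in the median. In replicate 2 the receptor summits were therefore nearer to each other than to the FGFR1 summit, and in replicate 1 the 3 medians were within 3 bp of one another. Tracts shortened the distances in replicate 1. Without them the medians were 32 bp to RXR and 27 bp to Nur77, against 15 and 13 bp on tracts outside promoters. Measured along the gene at promoters without tracts, the receptor summit was downstream of the FGFR1 summit at 52.1% (RXR) and 52.3% (Nur77) of the replicate 1 peaks and at 52.6% and 52.9% of the replicate 2 peaks, close to an even split.

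**Figure D3:**
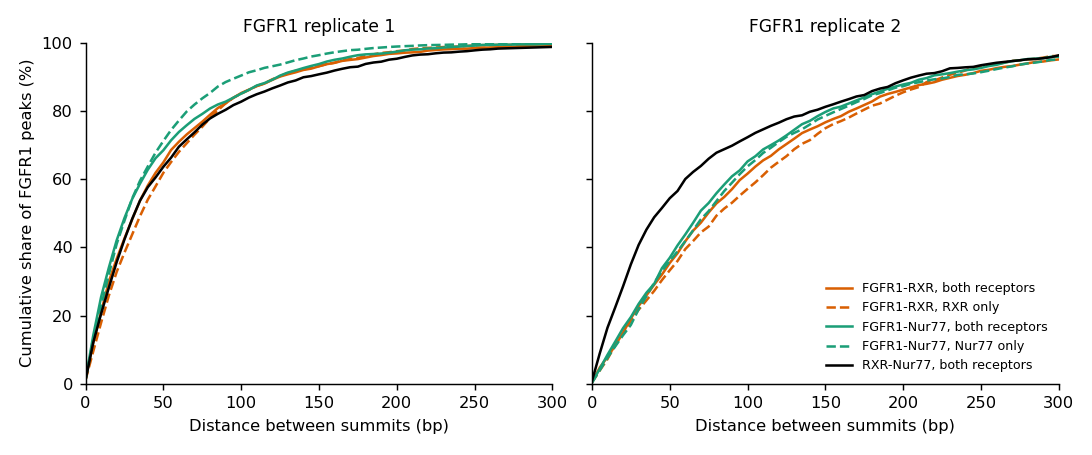
Cumulative share of FGFR1 peaks without a tract (%, vertical axis) whose summit lay within the distance on the horizontal axis (bp) of the RXR or Nur77 summit, with both receptors (solid) or a single one (dashed), and the distance between RXR and Nur77 summits (black). In replicate 2 the black line rises first, with a median of 43 bp against 75 and 69 bp for FGFR1 to RXR and Nur77.

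Lists that the classes did not use were then compared. Peaks with both receptors were the most often shared with the lists from LIF and with H3.3, a histone variant deposited at active regions. In replicate 1, 62.2% (61 to 63.5) of the peaks with both receptors had an H3.3 peak, against 22.9% (21.5 to 24.3) with RXR alone, 25% (24 to 26) with Nur77 alone and 4.89% (4.65 to 5.14) with neither. The replicate 2 shares were 52.3% (49.9 to 54.7), 21.9% (19.9 to 24), 26.6% (24.5 to 28.8) and 5.08% (4.64 to 5.55). The intervals of the class with both receptors and of that with neither did not meet those of any other class. Strength moves with this result, so it was repeated within the top 20% of each list by −log10 p, at promoters without tracts. There H3.3 was found at 63.2% and 56.1% of the peaks with both receptors and at 13.5% and 9.48% of those with neither. In the lowest 20% the shares were 22.8% and 41.4% against 4.4% and 2.57%.

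The sites with both receptors in RA were often occupied in LIF too. At promoters without tracts, RXR in LIF was found at 83.1% of them in replicate 1 and 89.1% in replicate 2, Nur77 in LIF at 54.9% and 62%, and FGFR1 in LIF at 46% and 56.1%. With neither receptor in RA these shares were 33.7% and 35% for RXR, 14.8% and 14.5% for Nur77, and 10.5% and 12.5% for FGFR1. The single receptor classes lay between. RXR in LIF was found at 58.6% and 69.7% of the promoter peaks that had Nur77 but no RXR in RA, and at 63.2% and 70.2% of those with RXR alone. The RXR library from LIF had a background of 7.09 fragments per kb against 1.87 in RA, so a loss of RXR in RA and a lower depth cannot be told apart. Nur77 in LIF was found at 31.2% and 35.9% of the peaks with RXR alone in RA.

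**Figure D4:**
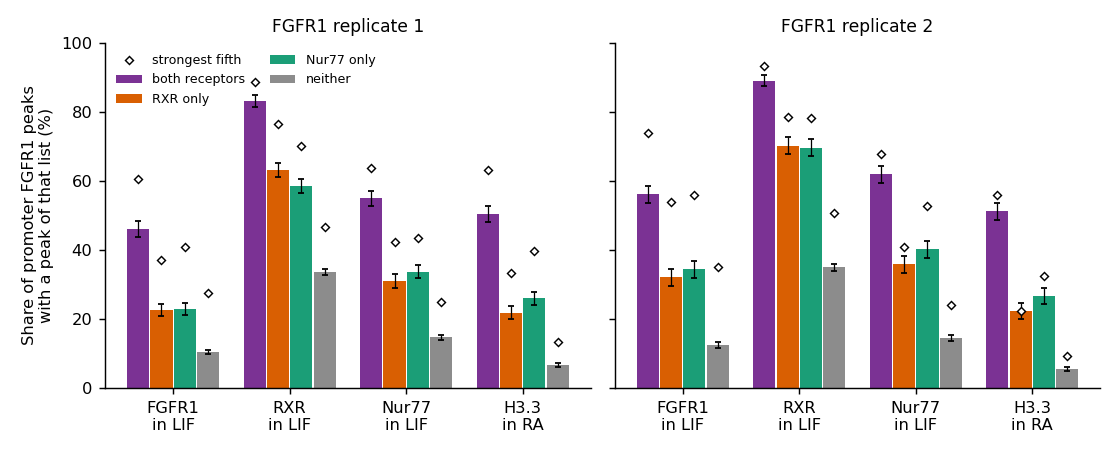
Share of promoter FGFR1 peaks without a tract (%, vertical axis, from 0) that overlapped a peak of FGFR1, RXR or Nur77 in LIF or of H3.3 in RA, by class, for each FGFR1 replicate, with exact 95% intervals. Diamonds give the share among the peaks of that set in the top 20% of the list by −log10 p, and in each group of bars the class with both receptors is highest and that with neither lowest.

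The sequence under the summits was compared over promoter peaks without tracts, in 100 bp around each FGFR1 summit and on both strands. The words searched were AGGTCA, AAAGGTCA (which contains it), TGACGTCA, CACGTG, CCGGAAGT, GCATGCGC, AAGATGGCG, GGGGCGGGG and AGGGGGCGC. The NRF1 core was found in 7.55% (6.39 to 8.84) of the replicate 1 peaks with both receptors, 2.64% (2.0 to 3.41) with RXR alone, 4.15% (3.38 to 5.05) with Nur77 alone and 1.94% (1.68 to 2.23) with neither. The replicate 2 shares were lower but in the same order, at 4.42%, 1.8%, 2.86% and 1.39%. Of 132666 windows of this length around annotated starts, 0.894% held it. The CRE was in 3.5% and 1.85% of the peaks with both receptors against 1.09% and 0.803% with neither and 0.644% of start windows, and the E-box in 8.03% and 5.54% against 4.84% and 2.91% and 2.2%. These 3 words contain the dinucleotide CG, as do CCGGAAGT, AAGATGGCG, GGGGCGGGG and AGGGGGCGC. Among these others, AGGGGGCGC was less frequent with both receptors than with neither in each list, as was GGGGCGGGG in replicate 2. The observed over expected CG content around the summit was highest with both receptors, with medians of 0.966 and 0.932 against 0.813 and 0.813 with neither. The start windows had a lower median ratio, 0.414, and a median GC content of 54%, against 66% to 72% by class and list in these peaks. They are thus a baseline of unlike composition for every word. The part of base composition in the word counts was not tested.

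Around the FGFR1 summits of replicate 1, the receptors' own core was not more frequent with a receptor than with neither. The windows are centred on the FGFR1 summit and often miss that of the receptor. At promoter peaks without tracts and with both receptors, the RXR summit lay within 50 bp at 60.5% (replicate 1) and 34.2% (replicate 2). For the Nur77 summit these shares were 64.5% and 35.3%. How frequent the letters were at the receptor summits was therefore not tested. The core AGGTCA was in 2.86% (2.15 to 3.72) of the replicate 1 promoter peaks with both receptors, 3.2% (2.49 to 4.04) with RXR alone, 4.11% (3.34 to 5.0) with Nur77 alone and 4.57% (4.17 to 5.0) with neither, against 5.0% of start windows. The replicate 2 shares ran from 2.86% to 3.61% in the 4 classes. The extended form AAAGGTCA was in 0.0539% to 0.15% by class in replicate 1 and 0.136% to 0.264% in replicate 2, against 0.362% of start windows. A direct repeat of the exact core spaced by 1, 2 or 5 bases was seen under at most 3 summits of any class, counted over all peaks of a list and for a single spacing. Exact letters miss degenerate sites, so these counts describe the letters and not the binding of the factors. For the other words, the ETS site was in 2.8% and 3.89% with both receptors against 1.65% and 2.61% with neither (1.8% of start windows), the YY1 word AAGATGGCG in 1.78% and 2.77% against 1.08% and 2.33% (1.08%), the GC box in 4.37% and 3.1% against 3.48% and 3.53% (3.27%), and the CTCF word AGGGGGCGC in 0.485% and 0.396% against 1.02% and 0.953% (0.261%).

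Where the FGFR1 lists had a peak at the same place, they mostly gave it the same class. Of 9547 overlapping pairs of peaks, 8239 or 86.3% agreed, which is in part built in, since overlapping peaks meet the same receptor peaks. Agreement covered 1490 pairs with both receptors, 1192 with RXR alone, 1269 with Nur77 alone and 4288 with neither. The most frequent mismatches were peaks with neither receptor in replicate 1 whose wider counterpart in replicate 2 met Nur77 (337), RXR (290) or both (228). The classes also differed in how often a peak recurred at all. With both receptors 96.5% of the replicate 2 peaks had a replicate 1 peak, against 81.5% with RXR alone, 81.9% with Nur77 alone and 43.1% with neither. In the other direction the shares over all replicate 1 peaks were 25.7%, 38%, 21.6% and 17.3%, so that RXR alone was highest. At promoters without tracts they were 74.4% with both receptors, 59.8% with RXR alone, 56.6% with Nur77 alone and 45.4% with neither, and on tracts outside promoters 0.552% with both and 0.0846% with neither. Of the agreeing pairs, 124 with both receptors, 91 with RXR alone, 113 with Nur77 alone and 533 with neither lay outside promoters and off tracts.

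Seen from the receptors, and off tracts, the median fold was somewhat higher for peaks in both FGFR1 lists or in replicate 1 alone than for those in neither. Without tracts, the 2817 RXR peaks found in both FGFR1 lists had a median fold of 6.71, the 2733 found in replicate 1 alone 6.61, the 508 found in replicate 2 alone 6.14 and the 2282 found in neither list 6.2. For Nur77 the medians were 7.01, 6.92, 6.29 and 6.44 in the same order. The place of a receptor peak went with the FGFR1 list that it met. Of the RXR peaks without tracts, 91.8% of those in both FGFR1 lists, 45.4% of those in replicate 1 alone, 90.4% of those in replicate 2 alone and 37.7% of those in neither were in promoters, and for Nur77 the shares were 91.4%, 32.8%, 88.9% and 20.03%. Replicate 2 itself had 84.4% of its peaks in promoters and replicate 1 36.8%. Of all RXR peaks, 35% met no FGFR1 peak in RA, and of all Nur77 peaks 49.2%.

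Genes were then assigned to the classes through their promoters. A gene took the class with both receptors if any of its promoter FGFR1 peaks had both, otherwise that of the single receptor found, and otherwise neither. Of 21951 protein-coding genes, 8664 had an FGFR1 promoter peak in both lists, and 7127 of these (82.3%) had the same class in both. The lists agreed on both receptors for 1470 protein-coding genes (6.70% of all), on RXR alone for 1041 (4.74%), on Nur77 alone for 1110 (5.06%) and on neither for 3479 (15.8%). Another 27 genes had RXR and Nur77 at separate FGFR1 peaks in both lists. With noncoding genes the counts were 1740, 1201, 1296 and 4218. The agreeing peaks overlapped between the lists at 1456 of the protein-coding genes with both receptors, at 1011 and 1082 of those with RXR or Nur77 alone, and at 2854 of those with neither. They came from fewer peaks than genes, for example 1255 replicate 2 peaks with both receptors, because a peak can lie in the promoters of several genes. At the genes whose peaks coincided, H3.3 was found at 781 of those with both receptors (53.6%), 260 with RXR alone (25.7%), 321 with Nur77 alone (29.7%) and 273 with neither (9.57%). The noncoding genes with both receptors included 39 lincRNA, 90 antisense and 9 miRNA genes. Between 10 and 31 genes per class rested on a tract peak.

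The genes named next lead their class by the mean rank of the FGFR1 −log10 p over the lists, or belong to gene lists chosen with earlier results of these data known. With both receptors, the best rank was shared by Hist4h4, a histone H4 gene with folds of 21.4 and 19.3 and a peak in all 8 lists, and by the divergent pair Srsf7, which encodes a splicing factor, and Ttc39d. The peak at Srsf7 (chr17:80207145-80207337 in replicate 1, chr17:80207051-80207529 in replicate 2) had a fold of 25.3 and a −log10 p of 61.4 in replicate 1, and 27.9 and 251 in replicate 2, with its summits in an untranslated exon. The RXR peak there had a fold of 4.85 on 6 fragments, 54 bp from the replicate 1 summit, and the Nur77 peak a fold of 8.83, 207 bp away. A strong FGFR1 peak thus stood beside an RXR peak near the fewest fragments at which peaks were called, 4 in this list.

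Hist1h1c, a linker histone gene, followed with a fold of 25.9 and a −log10 p of 83.6 in replicate 1, and 11.6 and 139 in replicate 2, at a summit 824 bp downstream of its start. Acsl3, which encodes an enzyme that activates long fatty acids and shares its promoter with Utp14b, had a peak in all 8 lists of the study and folds of 19.5 and 23.5. P4ha1, a subunit of the collagen prolyl hydroxylase, had folds of 17.6 and 23.3 and Paip2b, a regulator of translation, 17.5 and 23.6, with an H3.3 peak at both. Sfi1 and Gm10800 complete the top 10. Their peaks were found in all 8 lists, with 110 and 98 fragments at the summit and folds of 14.8 and 17.2 in replicate 1, against folds of 7.44 and 6.46 in replicate 2. The receptor peaks there were far above those at the other genes named, with a −log10 p of 69.6 for RXR and 86.9 for Nur77 at Sfi1, 65.4 and 84.4 at Gm10800, and 24.2 and 14.4 at Hist4h4. The median peak of replicate 1 held 10 fragments. No control library is named, so whether the signal at Sfi1 and Gm10800 depends on the antibody was not tested.

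Among the chosen gene lists, the genes with both receptors in both FGFR1 lists included 3 of 19 CREB and CBP genes. That is 15.8%, against 6.70% of all protein-coding genes. Another 5 of the 19 (Atf2, Camk2d, Rps6ka1, Rps6ka2 and Rps6ka3) had neither receptor in both lists, 26.3% against 15.8% of all. Atf4, a stress response factor of the CREB family, had a fold of 9.89 and a −log10 p of 18.1 in replicate 1, and 14.8 and 115 in replicate 2, with RXR and Nur77 summits 157 and 122 bp from that of replicate 1. Atf1, a close relative of CREB, had folds of 16.3 and 11.4 at a peak upstream of its start (chr15:100227628-100227821), where both receptor summits lay within 21 bp in replicate 1. Crtc1, a coactivator of CREB, had folds of 10.2 and 12.2 with the receptor summits 7 and 4 bp away. Mesp2, a mesodermal regulator, had 8.66 and 6.81 at a peak in its coding sequence. Hoxd1, the only Hox gene on which the lists agreed for a receptor class, had 8.7 and 8.99 and a peak in all 8 lists. Psmb2, a proteasome subunit gene, had 20.2 and 19.6, and the summits of RXR and Nur77 were within 5 bp of the FGFR1 summit in both lists. Polycomb members with both receptors were Ezh1, Pcgf6, Kdm2b and Cbx6, Wnt pathway members Csnk1a1 and Btrc, and cell cycle genes Mcm4, Orc1, Orc3, Orc6, Ccna2 and E2f5.

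RXR alone marked another set. Nabp1, which encodes a protein that binds single-stranded DNA, led it with a fold of 22.3 and a −log10 p of 49.4 in replicate 1, and 24.9 and 189 in replicate 2, at a replicate 1 peak that held a tract of 20 bp. Caprin2, an RNA-binding protein gene, had 29.5 and 21.4, and RXR there had a fold of 8.67. Insig1, a brake on cholesterol synthesis, had folds of 17.5 and 19 at chr5:28071307-28071479 and chr5:28070923-28071626, and no receptor peak in LIF overlapped the former. Ldha, the muscle type subunit of lactate dehydrogenase, had 16.7 and 18.8, and the divergent pair Mgme1 and Snx5 had 18.4 and 20.9.

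The listed genes with RXR alone included FGF and cAMP signalling genes. Frs2, the adaptor that couples FGF receptors to Ras, had folds of 6.24 and 11.2, and Etv5, a target of ERK signalling, 7.57 and 10.7. The cAMP-dependent protein kinase genes Prkaca and Prkar1a had 7.71 and 7.4, and 9.81 and 8.17. Ep300, the acetyltransferase related to CBP, had 9.39 and 4.7, the latter on a −log10 p of 9.16. Smad1, a mediator of BMP signals, had 8.06 and 12.6. Dvl2 and Znrf3 of the Wnt pathway, Pcgf3 of the Polycomb list, Nipbl of the cohesin list, the cell cycle genes Ccnb2 and Cdt1, the early response genes Atf3 and Dusp1, and the histone genes Hist1h1e and Hist1h1b were also in this class.

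Nur77 alone was led by Hspa5, the chaperone BiP of the endoplasmic reticulum, with a fold of 24.6 and a −log10 p of 60.9 in replicate 1, and 21.5 and 149.8 in replicate 2 and a Nur77 peak of fold 7.32 at 77 bp. Rpl3, a ribosomal protein gene, had the highest replicate 2 −log10 p of this group, with a fold of 19.3 and a −log10 p of 40.8 in replicate 1, and 22.8 and 222 in replicate 2. Rps20, another ribosomal protein gene, had 23.7 and 18.7, Fam53c 23.2 and 23.7, H2afx, which encodes the DNA damage histone H2AX, 16.7 and 17.1, and Amdhd2, an enzyme of amino sugar breakdown, 19.3 and 22.4. At Amdhd2 the Nur77 summit was 5 and 4 bp from the FGFR1 summits.

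Creb1 itself, the gene of the founding CREB protein, was among the listed genes of this class, with a fold of 14.4 and a −log10 p of 27.8 in replicate 1, and 13.6 and 52.9 in replicate 2 at chr1:64532763-64532922 and chr1:64532556-64533077, beside a Nur77 peak of fold 5.5 on 7 fragments. Stat3, the effector of LIF, had 7.77 and 8.24, beside a Nur77 peak of fold 8.91. The Polycomb genes Ezh2 and Eed had 11 and 12.9, and 11.5 and 6.54, joined by Pcgf1 and Rbbp4. Ncor1, a corepressor of RA receptors, had 11.8 and 5.92 with the Nur77 summit 4 bp from that of replicate 1, where no list from LIF had a peak that overlapped it. Grb2, the adaptor downstream of Frs2, had 18.2 and 8.06, Etv4 7.39 and 5.07 at a tract of 35 bp, and Spred2, an inhibitor of the ERK cascade, 6.75 and 4.44. Stag1 of the cohesin list and the cell cycle genes Ccnb1 and Cdk4 were in this class too.

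Strong FGFR1 peaks were also found without either receptor. Arid5a, which encodes a DNA- and RNA-binding protein, had a fold of 20.8 and a −log10 p of 51.2 in replicate 1, and 24.2 and 149.9 in replicate 2, and Slc25a4, the mitochondrial ADP/ATP carrier, had a fold of 19.1 and a −log10 p of 42.5 in replicate 1, and 23.8 and 136 in replicate 2. The divergent pair Ddx5, an RNA helicase gene, and Cep95 had folds of 16.9 and 16.1. Marcksl1 had 25.5 and 17.9, and Stmn1, which encodes the microtubule regulator stathmin, 15.3 and 25.6. Slbp, the histone mRNA binding protein gene, had 16.1 and 19.9, Gtf2b, the gene of the general transcription factor TFIIB, 18.2 and 23.3, Tob1 15.1 and 20.4, and Tsc22d1 20.5 and 18.2. The replicate 2 folds of these 10 genes ran from 16.1 to 25.6, against 6.46 (at Gm10800) to 27.9 for the top 10 genes with both receptors. Both sets were picked by the rank of FGFR1 −log10 p, so these ranges do not compare the classes. At Arid5a, RXR and Nur77 peaks in LIF overlapped the replicate 1 peak, as they did at Slbp, whereas at Stmn1 neither receptor had one in LIF either.

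Where the FGFR1 lists agreed, the genes of the receptors and of the retinoid pathway fell mostly in the class with neither. Cyp26a1, which encodes an RA-degrading enzyme, had a fold of 15.1 and a −log10 p of 37.8 in replicate 1, and 10.8 and 66.8 in replicate 2, with an H3.3 peak and no receptor peak in RA. Crabp1, a carrier of RA within the cell, had folds of 7.44 and 9.45, Nrip1, a corepressor, 8.86 and 11.8, and Rara, an RA receptor gene, 6.1 and 7.95. Rxra, Rarg, Dhrs3 and Ncoa2 were in the same class. The Fgfr1 gene had a fold of 5.83 and a −log10 p of 8.53 in replicate 1, and 17 and 69.3 in replicate 2. Nr4a1, which encodes Nur77, had peaks of fold 5.15 and 9.23 at different starts in the lists (chr15:101254218-101254358 and chr15:101266775-101267051), and Nr4a2 was in this class at peaks that did not coincide either. Of the 25 retinoid genes the lists agreed on 9, 8 with neither receptor and 1 (Ncor1) with Nur77 alone. Over all protein-coding genes they agreed on 7127, of which 3479 had neither. Among genes without agreement, Ncoa1, Ncoa3, Rarb, Rxrg and Nr4a3 had a receptor class in replicate 1, and Rdh10 had one in replicate 2. Of the 29 neural genes they agreed on 4 (Id3, Meis1, Tubb3 and Cdx1), all with neither. An FGFR1 promoter peak was found at 19 of the 29 in replicate 1 but at 6 in replicate 2. Over all 21951 protein-coding genes these counts were 11138 and 10894.

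The gene lists were then set beside all protein-coding genes, of which 16.6% had a receptor class in both FGFR1 lists. Where both lists agreed on a class, it was one with a receptor for 51.2% of all genes. This was so for 19 of 25 proteasome genes, split as 7 with both receptors, 6 with RXR and 6 with Nur77. It was also so for 13 of 21 genes of SR proteins and hnRNPs, the families that govern splicing. The counts were 50 of 84 for Zfp genes numbered below 500 and 7 of 12 for the CREB and CBP list. Shares near that of all genes were seen for mitochondrial ribosomal proteins (32 of 65), the respiratory chain (31 of 62), Polycomb genes (9 of 18), FGF and ERK signalling (7 of 14) and cytosolic ribosomal proteins (24 of 54). Lower counts were seen for cell cycle genes (10 of 27), the Wnt pathway (4 of 14), pluripotency genes (3 of 9), CTCF and cohesin (2 of 6), replication-dependent histones (4 of 21), immediate early genes (2 of 12), Hox genes (1 of 7) and mesodermal genes (1 of 8). The retinoid (1 of 9) and neural (0 of 4) lists were lower too.

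FGFR1 strength did not order these lists in the same way. The replicate 2 median −log10 p was taken over agreeing genes whose peaks coincided between the lists. It was 25.7 for the proteasome, 50.8 for immediate early genes, 60.8 for cytosolic ribosomal proteins and 46.8 for histones, against 28.8 for all genes. The retinoid, neural and Hox lists, at 21, 15.8 and 17.1, were below all genes, on 7, 4 and 4 such genes. The lists are small, no test was run on them, and the pluripotency and mesodermal lists follow genes that the study examined in these samples. Of the 15 pluripotency genes, Ctcf, Esrrb, Klf4, Suz12, Tfcp2l1 and Zfx were in the class with neither receptor. At Klf4, and at Dusp6 among the ERK genes, the FGFR1 peaks of the lists did not coincide. The mesodermal genes with neither were Dusp6, Hspg2, Lfng, Nkd1, Notch1, Nrarp and Porcn.

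**Figure D5:**
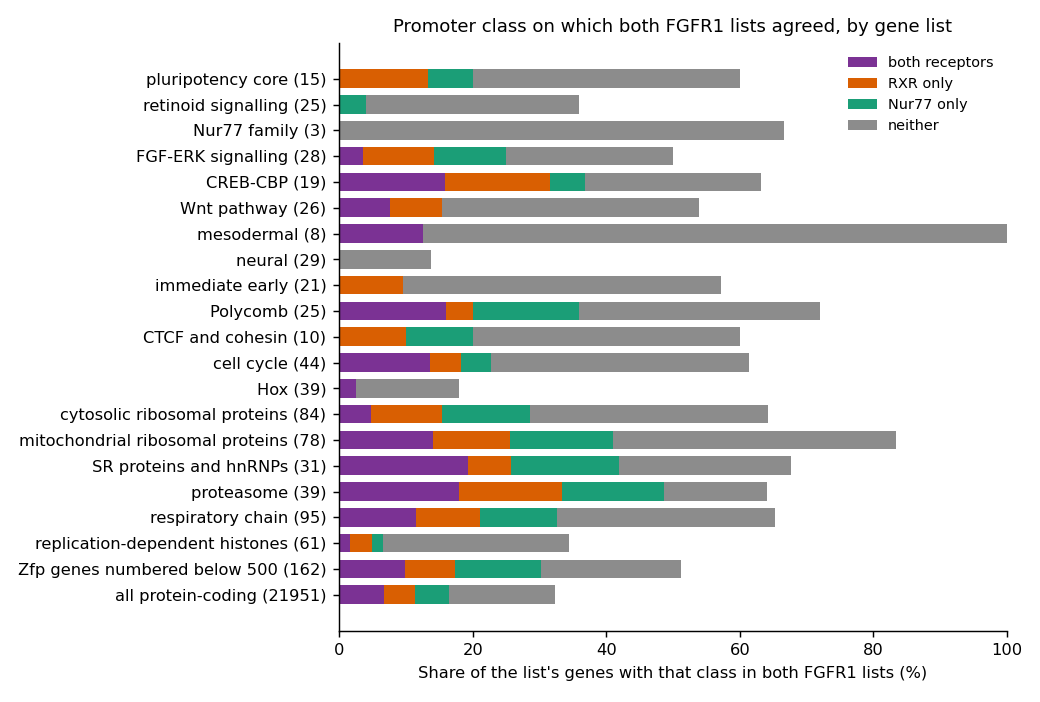
Share of the genes of each list (%, horizontal axis) for which both FGFR1 lists gave the same promoter class, coloured by class, with the number of genes in the list in parentheses. The space to the right of a bar is genes without an FGFR1 promoter peak in both lists or with different classes, and the bottom bar is all 21951 protein-coding genes.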

How the data were processed

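The authors aligned reads to mm10 with Bowtie 1.0, kept reads with a single alignment, and called peaks in each library on its own with MACS2 at a p limit of 1e-05, per the labels and the methods of the study. The deposited lists give each peak's interval and summit (other), a score, the fold or ratio of pileup to background with a pseudocount (column 7) and −log10 p and −log10 q values of the summit (columns 8 and 9). The score and −log10 q were not analysed. The authors pooled no libraries. Fold and −log10 p were solved for whole fragments at the summit and a background (tolerance 0.002), which gave the depth. This step was tested on simulated data, whose backgrounds were lower than those of many replicate 2 peaks. The simulated fragment counts stopped below those of the strongest peaks, so the step was not tested over that range.

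Peaks were matched by at least 1 bp. Promoters reached 1000 bp either side of 141767 GENCODE M21 transcript starts, with an overlap of at least 20 bp, whereas the study used UCSC known genes. Sequence was read from the RefSeq copy of GRCm38, the assembly that mm10 stands for. Values of separate lists were compared only within a list, since depth and fragment length differ. Shares have exact Clopper-Pearson intervals at 95%, and FGFR1 means the SD of its lists. No test was run, because RXR and Nur77 had 1 library each. The labels do not say whether the FGFR1 libraries came from separate cultures. The members and gene lists were chosen with earlier results of these data known.

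Genes were named where the lists agreed and, for the leading genes, where their peaks of that class overlapped, as the best mean rank of FGFR1 −log10 p among promoter peaks (10 genes with both receptors, 6 with RXR, 6 with Nur77 and 10 with neither), plus members of the gene lists that agreed on a class with a receptor or, in the pluripotency, retinoid, Nur77 family, FGF, CREB, mesodermal and neural lists, on neither. Where a list had more than 6 in a class, the 4 best ranked were taken, and a few further members are named without values. Some members of these lists are not reported here. The alternatives were a −log10 p of at least 10, the 14082 strongest peaks per list, overlap of at least 50% of the shorter peak, summits within 100 bp, removal of tract peaks, each FGFR1 list alone, promoters of 500 bp and transcripts of protein-coding genes only. Python 3.11.15, numpy 2.4.6, pandas 2.3.3, scipy 1.17.1 and matplotlib 3.10.9 were used.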

Additional observations from a re-analysis of the deposited data

How the results depend on the processing

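Class shares and gene counts moved with the peak threshold, the matching rule and the tracts, while the class with neither receptor held the largest mean share under each of the 5 settings tried. The mean share with both receptors was 8.65% with a −log10 p of at least 10, 15.4% with equal numbers of peaks, 11.3% with overlap of 50% of the shorter peak, 8.4% with summits within 100 bp and 9.81% without tract peaks. The share with neither was 74.1%, 62.1%, 67.4%, 71.8% and 68.4% in the same order. RXR alone became 6.37% at the higher threshold and 14.3% with equal numbers, and Nur77 alone 10.9% and 8.18%. The close match of the FGFR1 lists was lost with equal numbers of peaks, where replicates 1 and 2 had both receptors at 24.4% and 6.47% and neither at 49.7% and 74.4%. With a single FGFR1 list the shares ranged from 12% to 13% with both receptors, 7.9% to 11.3% with RXR, 11.8% to 14.7% with Nur77 and 64.5% to 64.8% with neither, and the promoter share from 34.2% to 91% with both receptors and from 34.6% to 81% with neither. The number of genes with both receptors in both lists was 694 at the higher threshold, 809 with equal numbers and 783 with summits within 100 bp. Genes with RXR alone numbered 656 at the higher threshold and 704 by summits, genes with Nur77 alone 380 with equal numbers and 863 by summits, and genes with neither 2348 with equal numbers. The higher threshold and equal numbers leave fewer peaks by construction, and otherwise the cause was not tested. By list, the ratio of −log10 p between the classes with both receptors and neither ran from 1.43 to 1.92 and that of fold from 1.3 to 1.49 over the settings tried. Some orders turned. With equal numbers of peaks RXR alone had the larger mean share and 1069 genes against 380 with Nur77 alone. That setting cut the Nur77 list from 25995 peaks and the RXR list from 15224, so it fell mostly on Nur77. The mean promoter share was lower with both receptors than with neither at the higher threshold (54.9% against 62%), with equal numbers (57.4% against 62.5%) and with summits within 100 bp (59% against 59.5%). Replicate 1 had that order, at 21.3% against 37.7%, 25.1% against 42.6% and 30.2% against 35.9%. In replicate 2 the share with both receptors stayed higher, at 88.5% against 86.4%, 89.7% against 82.3% and 87.8% against 83.2%. Receptor depth limits the classes, because a receptor peak below the calling limit puts its FGFR1 peak in a lower class. No paired analysis was possible because the labels give no replicate numbers that tie libraries of different groups together.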
